A study of Mus musculus with 12 samples.

Results

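The Dlk1-Dio3 domain is an imprinted region of mouse chromosome 12 that holds one of the largest miRNA clusters of mammals. Its miRNAs were examined here in small RNA of exosomes (vesicles released into the medium) from primary mouse hepatocytes. Members were chosen by name, as every arm listed in the deposited expression table for 53 miRNAs of the cluster, from miR-770 to miR-410. This gave 104 arms of the 1965 mature miRNA arms in the table. The hepatocytes were primary cells at passage 0, grown in Williams' E medium with serum and a glutamine supplement, in 3 groups of 4 libraries. The lean group was the control and is labelled NCD, the second group had 4 weeks of HFD (a high-fat diet) and the third had 16 weeks of HFD. All groups carry the same culture labels, and strain and age are not given in the sources used here. Whether the 4 libraries stand for 4 animals is not labelled, so p-values measure only the spread between these samples, which may be technical.

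In this domain the protein-coding genes Dlk1, Rtl1 and Dio3 are expressed from the paternal chromosome, while the noncoding RNAs Meg3, Rian and Mirg, and the miRNAs, are expressed from the maternal one. The miRNAs are processed from long transcripts that run through the domain. A group of them lies antisense to Rtl1 and acts on the Rtl1 transcript. The long array that ends at Mirg is known from placenta, embryo and brain, and mice lacking it fail to adapt their liver metabolism normally at birth.

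On the GRCm38.p6 build (mm10), the hairpins lie at chr12:109563692-109743795, all but Mir299b on the plus strand. In the GENCODE annotation, Dlk1 (109452823 to 109463336, plus strand) and Meg3 (109541001 to 109571726, plus strand) precede most of the hairpins. Rtl1 lies at 109589193 to 109600330 on the minus strand, with Mir431, Mir433, Mir127, Mir434, Mir432 and Mir136 opposite its exon. Mir341, Mir1188 and Mir370 lie in introns of Rian (109603940 to 109661716, plus strand). The long array runs from Mir379 and enters Mirg (109729764 to 109749460, plus strand), where Mir541 is intronic and Mir485 exonic. The mature sequences of the members that the results turn on are given from RefSeq (GRCm38.p6), with the seed, bases 2 to 8, in capitals. A sequence was found for 100 of the 104 arms and for 29 of the 31 with a read. The first 6 are the arms read in every library and the arm pairs of miR-434 and miR-376b:
miR-541-5p: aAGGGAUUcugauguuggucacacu
miR-544-5p: uCUUGUUAaaaagcagagucu
miR-434-3p: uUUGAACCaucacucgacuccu
miR-434-5p: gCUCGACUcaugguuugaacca
miR-376b-5p: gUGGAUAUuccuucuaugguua
miR-376b-3p: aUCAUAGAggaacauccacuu
The others are further arms called in at least 1 comparison:
miR-300-3p: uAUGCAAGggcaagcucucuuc
miR-299a-3p: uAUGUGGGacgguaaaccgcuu
miR-337-5p: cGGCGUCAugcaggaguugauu
miR-543-5p: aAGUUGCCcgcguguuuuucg
miR-329-5p: aGAGGUUUucugggucucuguu
miR-341-3p: uCGGUCGAucggucggucggu
No seed was shared between the detected members with a sequence. The nearest relative in RefSeq of miR-376b-5p is miR-376c-5p, 1 edit away and at 0 in every library, and miR-376b-3p and miR-376a-3p are 3 edits apart. Since the treatment of reads with several matches is not given in the sources used here, the division of reads within the miR-376 family is uncertain.

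The hairpins of miR-541, miR-434 and miR-376b show how both arms come from one precursor, and the capitals mark the arms that were sequenced here:
Mir541: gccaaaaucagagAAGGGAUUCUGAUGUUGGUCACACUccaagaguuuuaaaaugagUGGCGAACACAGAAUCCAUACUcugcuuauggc
Mir434: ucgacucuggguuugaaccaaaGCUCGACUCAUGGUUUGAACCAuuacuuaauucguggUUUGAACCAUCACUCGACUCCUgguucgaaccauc
Mir376b: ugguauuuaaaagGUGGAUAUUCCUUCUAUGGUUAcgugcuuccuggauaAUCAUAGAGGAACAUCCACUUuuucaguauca
They lie at chr12:109742409-109742498, chr12:109594506-109594599 and chr12:109723458-109723539 on the plus strand. The promoter of Meg3, the first of the maternal transcripts, is shown because every hairpin of the set lies downstream of it. RefSeq gives it at chr12:109540746-109541045, plus strand, 250 bases before to 50 after the start:
Meg3 promoter: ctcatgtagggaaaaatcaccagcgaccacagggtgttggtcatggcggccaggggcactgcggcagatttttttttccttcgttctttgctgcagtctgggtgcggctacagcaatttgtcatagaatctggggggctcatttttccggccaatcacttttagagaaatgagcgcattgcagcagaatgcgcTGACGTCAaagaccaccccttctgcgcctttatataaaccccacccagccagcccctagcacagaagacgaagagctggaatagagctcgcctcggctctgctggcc
The capitals mark TGACGTCA, the palindromic cAMP response element, which is found in 588 of 32851 mouse promoter windows of the same length (1.79%, both strands read). The window also holds TATAAA on both strands, in overlapping letters, and no GGGCGG. On either strand, 13.6% of the windows hold TATAAA and 35.7% hold GGGCGG. It has 13 CG dinucleotides against a median of 7 over all windows. No measurement of binding or methylation was made in these samples.

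The rows of 4 members need care before any result is read. Values are CPM, the reads of a miRNA per 1000000 miRNA reads of its library, so each column is made of whole multiples of the CPM of 1 read. For miR-434-3p, miR-300-3p, miR-376b-3p and miR-299a-3p, 0 of 27 values above 0 in the lean and 16-week columns were whole reads of their own library. All 27 became whole, within a relative tolerance of 1e-06, when the lean and 16-week values of the same replicate number were exchanged. In the table as a whole, 98.2% of the 2664 values above 0 were whole reads as deposited. In 3 rows outside the cluster, too, no lean or 16-week value was whole as deposited. The exchange made all such values whole in miR-346-5p and miR-486a-5p, but only 5 of 7 in miR-155-5p. None of the 8 lean and 16-week columns summed to 1000000 CPM as deposited, and 5 did so after the exchange. Results are given from the deposited values, and for these 4 arms also with the values exchanged back.

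The libraries were shallow and unequal. Reads of the listed miRNAs numbered 13748 to 30430 per lean library, 2352 to 4477 per 4-week library and 20538 to 37596 per 16-week library. The CPM of 1 read ran from 32.9 to 72.7 (lean), from 223 to 425 (4 weeks) and from 26.6 to 48.7 (16 weeks). Where a group had no read, the level it could still have, taken as 3 reads over the group, was 36.2, 213 and 27.1 CPM for lean, 4 and 16 weeks. These limits and the intervals below cover counting error only. The means of miR-101b-3p, the most abundant miRNA, were 619422, 252344 and 603986 CPM for lean, 4 and 16 weeks, so the remaining miRNAs share a larger part of the total at 4 weeks. miR-122-5p, the defining miRNA of hepatocytes, had 3 reads in all 12 libraries.

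Of the 104 arms, 31 from 23 hairpins had a read in at least 1 library (29.8%), against 618 of all 1965 listed arms (31.5%). The other 73 arms were at 0 throughout, among them both arms of miR-127, miR-379 and miR-410, which are prominent members in other tissues. Detection was uneven along the cluster. Near Meg3, 9 of 12 arms were seen (75.0%), but antisense to Rtl1 only the 2 arms of miR-434, of 11. In Rian 2 of 6 were seen and in the long array 18 of 75. Of the 9 near Meg3, miR-770-3p, miR-673-3p, miR-337-3p and miR-665-5p had 1 read each over all libraries. In the whole cluster, 7 of the 31 detected arms had a read in 1 library only. By arm, 20 of 51 3p arms and 11 of 51 5p arms were detected.

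More members were seen per library in lean than on the diet. The lean libraries held 22, 20, 20 and 17 detected members, the 4-week libraries 8, 5, 9 and 8, and the 16-week libraries 12, 9, 11 and 6. The lean and 16-week ranges do not overlap, although the 16-week group was the more deeply sequenced in total (110777 reads against 82781). Over all listed miRNAs the same 2 groups overlapped, with 230 to 296 detected in a lean library and 246 to 281 at 16 weeks. With the 4 rows exchanged back the members detected were 22, 23, 21 and 18 in lean and 12, 6, 10 and 5 at 16 weeks. Over the group, 27 members had a read in lean, 14 at 4 weeks and 15 at 16 weeks, and 10 were read in lean alone. Of those 10, miR-770-3p, miR-337-3p, miR-329-3p and miR-1193-3p had 1 read each. The smaller number at 4 weeks goes with libraries of a lower depth, and the part of depth in it was not tested.

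**Figure D1:**
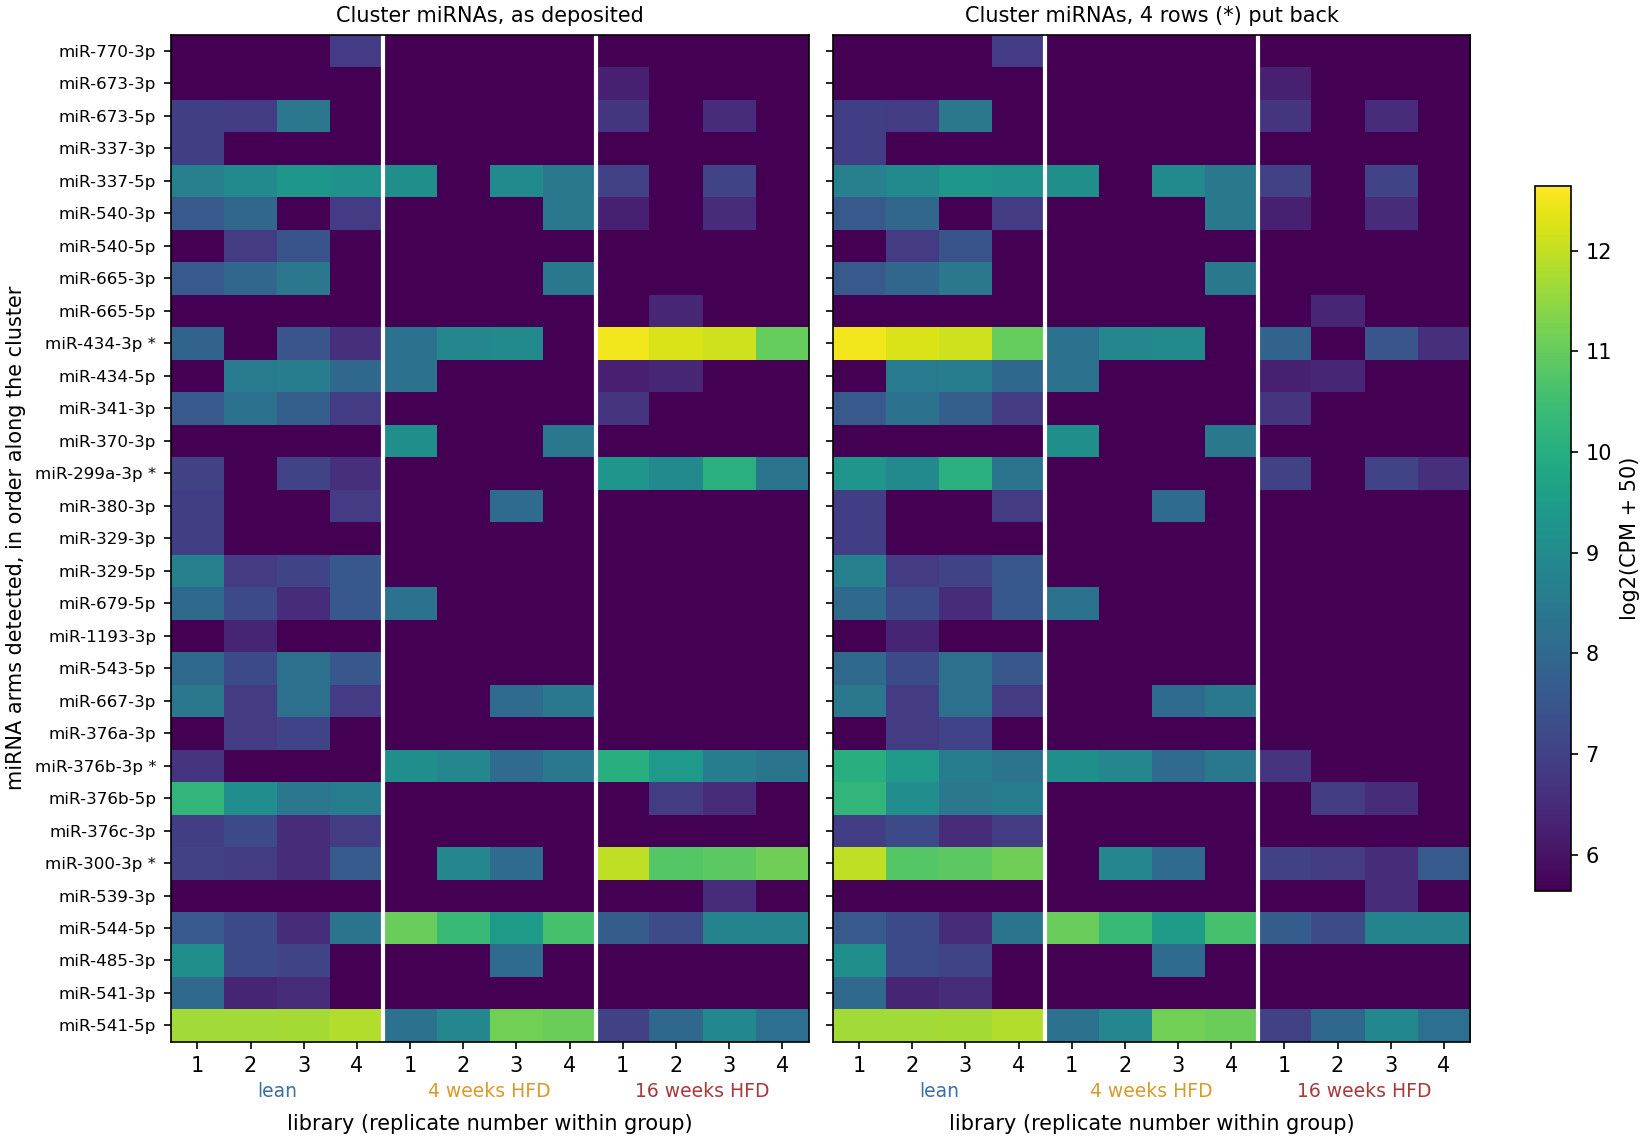
Levels of the 31 detected arms in each of the 12 libraries, as log2(CPM + 50), with rows in order along the cluster and the 4 rows marked by asterisks as deposited (left) or exchanged back between lean and 16 weeks (right). miR-541-5p is high in all 4 lean libraries, miR-544-5p in all 4 of 4 weeks, and the 4 marked rows change sides between the panels.

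The summed level of the cluster depends on the 4 rows. As deposited, the members added up to 7891, 6115, 6566 and 6037 CPM in lean, 4617, 2976, 4914 and 5397 CPM at 4 weeks and 11779.7, 8101, 8716 and 5336 CPM at 16 weeks. The lean libraries all lay above the 4-week ones, and 3 of the 4 at 16 weeks lay above every lean library. With the 4 rows exchanged back the lean libraries held 18766, 13704, 13956 and 10497 CPM and the 16-week libraries 904, 513, 1326 and 876 CPM. Then the order was lean, 4 weeks, 16 weeks, with no overlap between any of the groups. Of this lean sum, miR-434-3p, miR-541-5p and miR-300-3p made 29.7%, 23.4% and 17.1%.

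Leaving the 4 rows out gave the same order without relying on either reading. The 27 remaining detected arms had group means of 6410.5 ± 751, 3666 ± 1422 and 663 ± 282 CPM for lean, 4 and 16 weeks (SD, n = 4 libraries each). A few arms carried much of these sums, with miR-541-5p at a mean of 3334 CPM in lean. At 4 weeks miR-544-5p and miR-541-5p had means of 1374 and 1254 CPM. In reads the 27 arms summed to 103, 184, 151 and 85 in lean, and 19, 13, 25 and 13 at 16 weeks. The 16-week libraries thus held fewer of these reads in spite of their depth. The ratio of the group means on the log2 scale, 16 weeks against lean, was 0.35 as deposited, -3.98 with the rows exchanged back and -3.27 with them left out. As a share of all CPM the deposited members had means of 0.669% ± 0.0888, 0.448% ± 0.105 and 0.844% ± 0.259 in the same order (SD, n = 4 libraries each). No test was made of the sums.

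**Figure D2:**
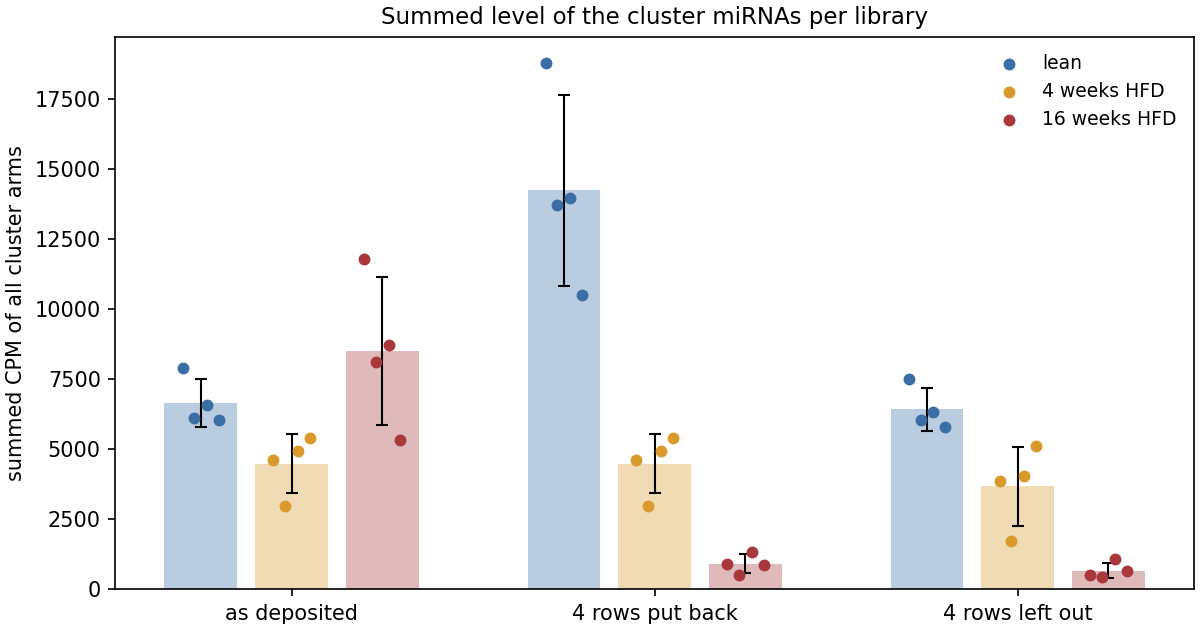
Summed CPM of the cluster arms in each library (points) with the group mean (bars) and SD (error bars), n = 4 libraries a group, under 3 treatments of the 4 rows. The 16-week bar is the highest as deposited (8483 CPM) and the lowest when the rows are exchanged back (905 CPM) or left out (663 CPM).

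The comparison of 16 weeks of HFD with lean asks what a long high-fat diet does to the exosomal miRNAs. In limma on log2(CPM + 50), 19 members passed the filter on low values (10 CPM in at least 4 of 12 libraries) among 267 miRNAs tested. Of these 7 were called lower, where 3.37% of all tested miRNAs were, and 4 higher, where 2.62% were, at an adjusted p under 0.05. The 4 higher ones are the 4 exchanged rows, of which miR-299a-3p met the filter only with the 16-week libraries counted. Of the 19, 12 met the filter only with the lean libraries counted, among them 5 of the 7 lower ones (miR-376b-5p, miR-341-3p, miR-543-5p, miR-329-5p and miR-376c-3p), so the count of 7 is no measure of the cluster as a whole. The 7 lower became 2 with no filter, 4 with a pseudocount of 1 CPM and 3 without 16-week replicate 3, and the 4 higher became 1 with a pseudocount of 1 CPM. The shares of all tested miRNAs called under these settings were not computed.

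miR-541-5p, processed from a Mirg intron at the far end of the array, was the most abundant member whose row was sound. Its level was 3200.5, 3221, 3301 and 3613 CPM in lean, and 79.8, 205, 428 and 243 CPM at 16 weeks. The lean libraries lie close together, each of them far above every 16-week library. The lean mean was 13.9 times the 16-week mean, and the log2 fold change was -3.69 (SE 0.66, limma adjusted p = 0.00173). On whole reads, 274 in lean against 24, the ratio was 15.3 (exact 95% interval 10.1 to 24.3, counting error only) and edgeR gave -3.85 (adjusted p = 5.5e-06). edgeR, which tested 72 miRNAs and 2 members, called 16.7% of them lower and 18.1% higher. miR-541-5p met edgeR's own filter on low counts only with the lean libraries counted, so the edgeR call is no support here. The limma call held without any 1 library, with fold changes from -3.99 to -3.36.

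The 5p arm of miR-376b, from the dense middle of the array, was at 1164, 492.9, 292 and 340.8 CPM in lean and at 0, 68.3, 42.8 and 0 CPM at 16 weeks. All lean values lie above all 16-week values. The log2 fold change was -2.91 (SE 0.63, adjusted p = 0.00914), and 43 lean reads against 3 gave a ratio of 19.2 (exact 95% interval 6.14 to 96.6). Since this arm met the filter only where it was high, its limma call with the filter is no support here. miR-337-5p, encoded between Meg3 and Rtl1, was at 364, 460.1, 585 and 545 CPM in lean and at 79.8, 0, 85.6 and 0 CPM at 16 weeks. The groups were apart here too, with a log2 fold change of -2.71 (SE 0.78, adjusted p = 0.0451). That call was lost on leaving out any 1 of the 8 lean and 16-week libraries (adjusted p 0.0588 to 0.136), with a pseudocount of 300 CPM or with the 4 exchanged rows left out. DESeq2 on whole reads called miR-541-5p, miR-337-5p, miR-376b-5p and miR-667-3p lower, where 15.6% of the miRNAs with an adjusted p were. Of the 7 limma calls, only those on miR-541-5p and miR-376b-5p held with no filter on low values, and those on miR-376b-5p, miR-337-5p and miR-341-3p ended with a pseudocount of 1 CPM.

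For 3 arms of the array, miR-543-5p, miR-329-5p and miR-376c-3p, a read was seen in every lean library and in no other. miR-543-5p was at 218, 98.6, 251 and 136.3 CPM in lean, at least 6.50-fold higher than 16 weeks against the limit of 3 reads over the group. miR-329-5p was at 364, 65.7, 83.6 and 136.3 CPM, at least 5.99-fold higher. miR-376c-3p was at 72.7, 98.6, 41.8 and 68.2 CPM, at least 2.60-fold higher. These arms rest on 14, 11 and 6 lean reads. Since they met the filter only where they were high, their limma calls carry no weight here, and all 3 ended with no filter.

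miR-341-3p, from an intron of Rian, was at 145, 263, 167 and 68.2 CPM in lean and at 53.2, 0, 0 and 0 CPM at 16 weeks. The groups do not overlap, and with 15 lean reads against 2 the ratio was 10.0 (exact 95% interval 2.33 to 90.4). This arm, too, met the filter only through lean, and its limma call ended with no filter. miR-667-3p (291, 65.7, 251 and 68.2 CPM) and miR-679-5p (218, 98.6, 41.8 and 136.3 CPM) were likewise read in every lean library and in none at 16 weeks. Neither passed in limma (log2 fold changes -1.95 and -1.69, adjusted p = 0.122 and 0.11). In total 9 tested members were lower in every 16-week library than in any lean one, against 9.74% of all tested miRNAs, but 7 of the 9 met the filter only with the lean libraries counted.

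The 4 exchanged rows are the only members called higher at 16 weeks. miR-434-3p, which lies antisense to Rtl1, reads as deposited 186, 0, 128 and 48.7 CPM in lean and 5674, 4831, 4429 and 1977 CPM at 16 weeks, a log2 fold change of 5.05 (SE 0.75, adjusted p = 0.000402). miR-300-3p reads 79.8, 68.3, 42.8 and 146 CPM in lean and 4001, 1742, 1839 and 2181 CPM at 16 weeks (4.18, SE 0.74, adjusted p = 0.00173). In both rows every deposited 16-week value lies far above every lean value.

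The other exchanged rows behave alike. miR-376b-3p reads 53.2, 0, 0 and 0 CPM in lean and 1018, 624, 334 and 273 CPM at 16 weeks (log2 fold change 3.19, SE 0.64, adjusted p = 0.00422). miR-299a-3p reads 79.8, 0, 85.6 and 48.7 CPM in lean and 582, 460.1, 1045 and 273 CPM at 16 weeks (2.59, SE 0.64, adjusted p = 0.0202, lost without lean replicate 1 or 2 or 16-week replicate 3). As deposited, miR-299a-3p met the filter only with the 16-week libraries counted, so its limma call is no support here. With the rows exchanged back each fold change is the same in size and opposite in sign, -5.05, -4.18, -3.19 and -2.59 in the order named here.

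With the exchange, 11 members were called lower at 16 weeks (4.87% of all tested miRNAs) and none higher (1.12%). No member was higher at an unadjusted p under 0.05 either, or in edgeR. Of the 11, miR-376b-5p, miR-341-3p, miR-543-5p, miR-329-5p and miR-376c-3p met the filter only with the lean libraries counted. So did miR-299a-3p once exchanged back, and the count of 11 is no measure of the cluster as a whole. On whole reads miR-434-3p then has 360 lean reads against 11, a ratio of 43.8 (exact 95% interval 24.18 to 88.5), and miR-300-3p has 184 against 9, a ratio of 27.4 (14.1 to 60.8). edgeR gave -5.39 and -4.76 for them (adjusted p = 1.04e-06 each), and with these rows it tested 75 miRNAs and 4 members, calling 17.3% lower and as many higher. Both arms met edgeR's own filter only with the lean libraries counted, so these edgeR calls are no support here.

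**Figure D3:**
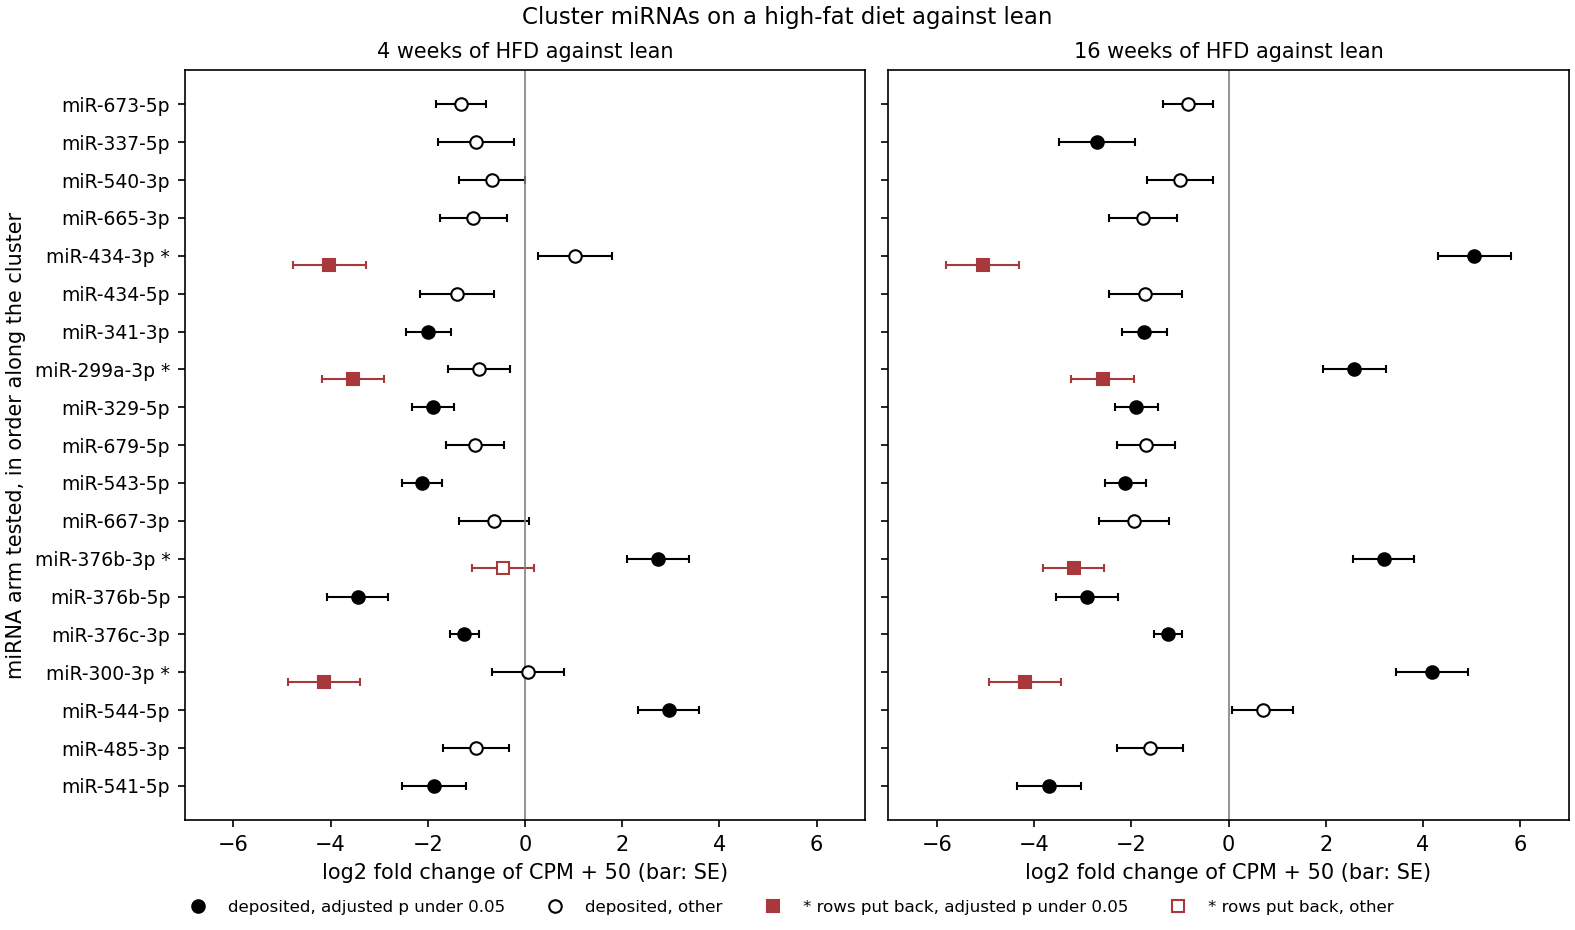
Log2 fold changes of CPM + 50 against lean at 4 weeks (left) and 16 weeks (right) for the 19 tested members in order along the cluster, with bars for the SE. Filled symbols pass an adjusted p under 0.05. The 4 rows marked by asterisks are the only ones right of 2 at 16 weeks as deposited (circles), and they lie left of -2 when exchanged back (squares).

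The comparison of 4 weeks of HFD with lean asks about a short diet. In limma 2 members were called higher, where 12.7% of all tested miRNAs were, and 6 lower, where 10.9% were. Of the 6 lower, 5 met the filter only with the lean libraries counted. When miR-101b-3p was taken out of the library totals, the 2 higher stayed 2 and the 6 lower became 7, while the log2 ratio of the summed level went from -0.57 to -1.57.

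The highest cluster arm at 4 weeks was miR-544-5p of the long array. Its level was 145, 98.6, 41.8 and 273 CPM in lean, 2052, 1276, 670.1 and 1499 CPM at 4 weeks, and 159.6, 103, 385 and 389.5 CPM at 16 weeks. All 4-week libraries lie above all others. The mean at 4 weeks was 9.84 times that of lean, with a log2 fold change of 2.95 (SE 0.63, adjusted p = 0.0034), and edgeR gave 2.88 (adjusted p = 0.00101), where it called 25% of its 72 miRNAs higher and 30.6% lower. miR-544-5p met edgeR's own filter on low counts only with the 4-week libraries counted, so its edgeR call is no support here. The limma call held without any 1 library (2.65 to 3.26). The counts behind it were small, with 10 reads in lean, 19 at 4 weeks and 26 at 16 weeks. miR-376b-3p was the second arm called higher (log2 fold change 2.74, adjusted p = 0.00532), but with its row exchanged back it was at -0.45 (adjusted p = 0.638).

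Among the lower arms, only miR-376b-5p and miR-541-5p had a lean mean above the 213 CPM that 3 reads give at 4 weeks. miR-376b-5p was at 0 in all 4 libraries of 4 weeks, so the lean mean was at least 2.68-fold higher (log2 fold change -3.45, SE 0.63, adjusted p = 0.00152). This arm met the filter only with the lean libraries counted, so its limma call with the filter is no support here. miR-541-5p was at 256, 425, 2234 and 2099 CPM at 4 weeks, of which the first 2 values are 1 read each. All 4 lie below every lean library. The log2 fold change was -1.88 (SE 0.66, adjusted p = 0.0458), and edgeR gave -1.95 (adjusted p = 0.00372). As miR-541-5p met edgeR's own filter only with the lean libraries counted, the edgeR call is no support here. On whole reads the ratio of lean to 4 weeks was 2.45 (exact 95% interval 1.54 to 4.13). In limma that call was lost without any 1 of the lean libraries, 4-week replicate 1 or 2, or 16-week replicate 2, 3 or 4 (adjusted p 0.0531 to 0.124). It also ended with a pseudocount of 1 CPM, with no filter and with only the 2 groups in the fit.

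The other 4 arms called lower, miR-543-5p, miR-341-3p, miR-329-5p and miR-376c-3p, were at 0 in all 4-week libraries. Their lean means of 176, 161, 162 and 70.3 CPM lie under the 213 CPM limit, so these data are too shallow to show a difference, whatever limma calls. miR-337-5p, at 513, 0, 447 and 299.9 CPM, overlapped with lean (log2 fold change -1.01, SE 0.78, adjusted p = 0.355). With the exchange, miR-300-3p (-4.13, adjusted p = 0.00114), miR-434-3p (-4.02, adjusted p = 0.00123) and miR-299a-3p (-3.54, adjusted p = 0.00116) were also lower at 4 weeks than in lean. This made 9 lower (12% of all tested) and 1 higher (13.1%). Of the 9, miR-376b-5p, miR-543-5p, miR-341-3p, miR-329-5p, miR-376c-3p and, once exchanged back, miR-299a-3p met the filter only with the lean libraries counted. edgeR with the rows exchanged back called 3 members lower (33.3% of its 75 miRNAs) and 1 higher (25.3%). Each of these members met edgeR's own filter only through the group where it was high.

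Between 16 and 4 weeks of HFD, 1 member was called lower, where 7.12% of all tested miRNAs were, and 3 higher, where 4.87% were. The lower one was miR-544-5p (log2 fold change -2.25, SE 0.63, limma adjusted p = 0.0248), as it was in edgeR (-1.95, adjusted p = 0.0133), which called 20.8% of its miRNAs lower and as many higher. Since miR-544-5p entered edgeR only through the 4-week libraries, where it was high, that edgeR call is no support here. In limma the call was lost without 4-week replicate 1 or 16-week replicate 1 or 2 (adjusted p 0.0582 to 0.077). It also ended with a pseudocount of 1 CPM, without miR-101b-3p in the total or with quantile normalization. At 16 weeks against lean miR-544-5p did not pass (0.71, SE 0.63, adjusted p = 0.594). The 3 higher ones were miR-300-3p, miR-434-3p and miR-299a-3p, which as deposited had log2 fold changes of 4.13, 4.02 and 3.54. As deposited, miR-299a-3p met the filter only through the 16-week libraries, where it was high.

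After the exchange none of these 3 passed (miR-300-3p -0.05, miR-434-3p -1.03 and miR-299a-3p 0.95, adjusted p = 0.995, 0.421 and 0.384), and no member was called higher (3% of all tested), at an unadjusted p under 0.05 or in edgeR (21.3% of its miRNAs, with 18.7% lower). miR-376b-3p was then lower at 16 than at 4 weeks (-2.74, adjusted p = 0.00982), besides miR-544-5p (5.99% of all tested). miR-541-5p was lower at 16 weeks in edgeR (-1.90, adjusted p = 0.0148) and missed the threshold in limma (-1.82, SE 0.66, adjusted p = 0.0793). The diet groups and the lean group are shared between the 3 comparisons, so these are not independent of each other.

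**Figure D4:**
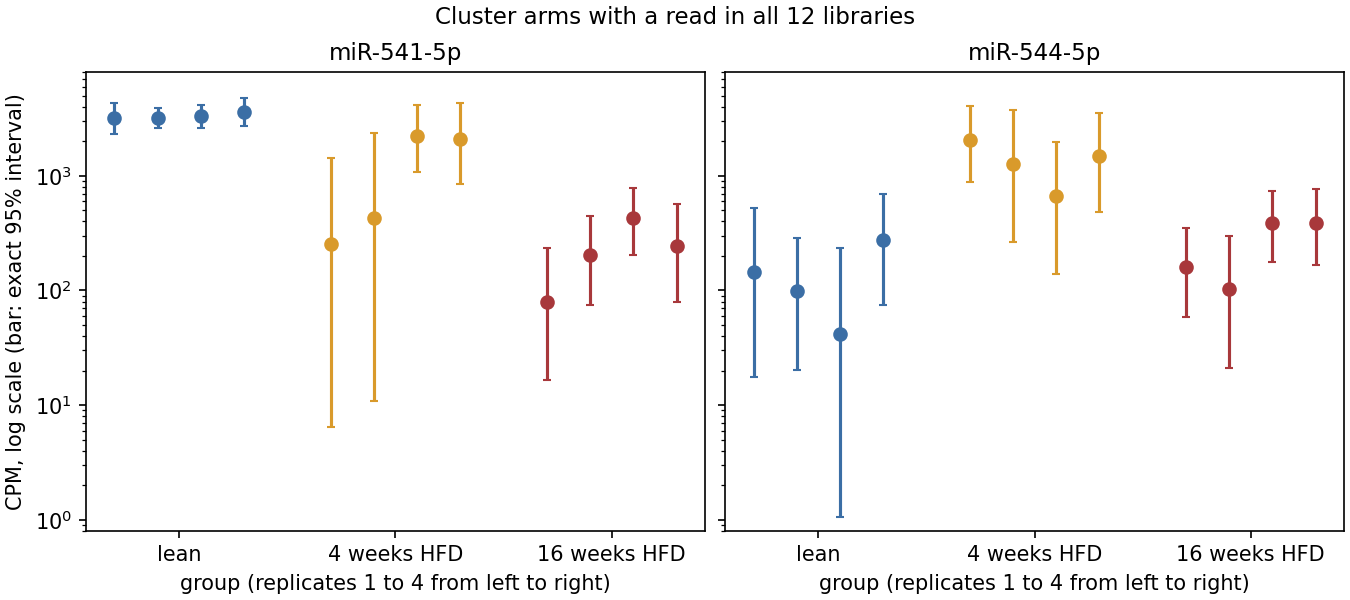
CPM of miR-541-5p (left) and miR-544-5p (right), the 2 members with a read in all 12 libraries, on a log axis with exact 95% intervals for counting error, replicates 1 to 4 from left to right in each group. Lean miR-541-5p lies between 3200.5 and 3613 CPM with narrow intervals, while the 4-week points rest on 1 to 10 reads and have wide ones.

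Of the 23 detected hairpins, 8 had reads from both arms, and their arms differ in how far one dominates. In miR-541 the 5p arm had 317 reads over all libraries and the 3p arm 5, all in lean. In miR-337 the 5p arm had 51 and the 3p arm 1. miR-329-5p had 11 reads and miR-329-3p 1, each in lean. miR-540, miR-665 and miR-673 had up to 16 reads an arm.

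For miR-434 and miR-376b one arm lies in an exchanged row and the other does not. miR-434-5p, whose row is whole as deposited, was at 0, 329, 334 and 204 CPM in lean, 256, 0, 0 and 0 CPM at 4 weeks and 26.6, 34.2, 0 and 0 CPM at 16 weeks. It had 21 lean reads against 2 at 16 weeks, a ratio of 14.1 (exact 95% interval 3.43 to 124), but missed the threshold in limma (log2 fold change -1.71, SE 0.75, adjusted p = 0.204). Its partner miR-434-3p goes the other way as deposited and the same way when exchanged back, with 360, 4 and 11 reads in lean, 4 and 16 weeks. miR-376b-5p had 43, 0 and 3 reads, and its partner miR-376b-3p, exchanged back, 45, 5 and 2. Scaled to depth, lean miR-376b-3p was 1.53 times its 4-week level (exact 95% interval 0.609 to 4.94). Against 16 weeks the ratio was 30.1 (7.87 to 256).

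**Figure D5:**
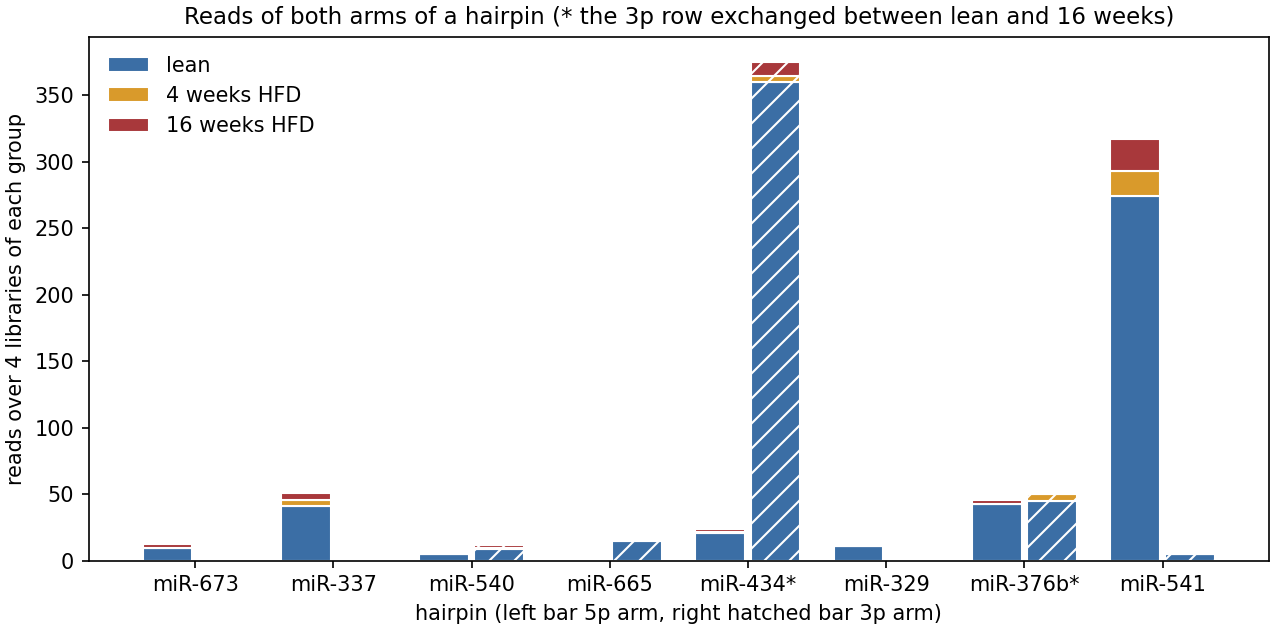
Reads of the 5p arm (left bar) and the 3p arm (right, hatched bar) of the 8 hairpins with both arms detected, stacked by group over 4 libraries each, with the 3p rows of miR-434 and miR-376b exchanged back. miR-434-3p (375 reads, 360 of them lean) and miR-541-5p (317 reads, 274 of them lean) hold most of the reads. The bars are not scaled to depth, which was lowest at 4 weeks.

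Other imprinted miRNAs were scarce in these exosomes. Of 11 further arms of the same domain (miR-1247, miR-3070, miR-3071, miR-3072, miR-1906 and miR-496b), 3 had a read and none passed the filter. miR-3072-3p, with 4 reads, was at 145, 32.9, 0 and 68.2 CPM in lean and at 0 elsewhere. Among 10 arms of the H19, Igf2, Mest and Gnas loci, miR-298-5p of Gnas alone was detected, with means of 94.5, 55.8 and 62.4 CPM for lean, 4 and 16 weeks, and it was called in none of the comparisons. The Sfmbt2 cluster, a large imprinted cluster of rodents, had reads for 4 of 80 arms, all at 16 weeks, and none passed the filter.

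Markers of other cells moved in part with the groups. The summed leukocyte list (6 of 12 arms detected, with miR-223 and miR-142a at 0) ran from 7107 to 38560.4 CPM over the lean libraries, from 22559.7 to 45277 over those of 4 weeks and from 42209.5 to 68566 over those of 16 weeks. It includes miR-155-5p, one of the exchanged rows, which the exchange made whole only in part. The neural list, of a tissue where the cluster is abundant, had 3 of 15 arms detected, with miR-124 and miR-9 at 0. Its sum, mostly miR-219a-1-3p, was 509 to 1499.6 CPM (lean), 256 to 2234 CPM (4 weeks) and 410.004 to 779 CPM (16 weeks). The stellate and fibroblast list had 2 of 13 arms detected, at 3346 to 5915, 3127 to 4360 and 4681 to 8113 CPM. All of that was miR-125b-2-3p apart from 1 read of miR-199b-5p, with miR-199a, miR-214, miR-143 and miR-145a at 0. The endothelial and muscle lists had 1 read each, and the red blood cell list ranged up to 1026 CPM at 4 weeks, all of it miR-486a-5p, which is another of the rows exchanged between lean and 16 weeks. The hepatocyte list (11 of 16 arms) was nearly all miR-101b-3p. The part of these cells in the levels of the cluster was not tested.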

How the data were processed

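Small RNA from hepatocyte exosomes was measured in 12 libraries. The deposited table gives CPM per miRNA and library, computed by the authors; the tools named in the submitters' processing notes are cutadapt 1.13 and edgeR 3.16.5, and the build is mm10. The aligner and the miRNA annotation are not given in the sources used here. Here, whole reads were recovered from the CPM steps. The main test was limma 3.58.1 under R 4.3.3, on log2(CPM + 50), empirical Bayes with a trend, all 12 libraries in 1 fit, Benjamini-Hochberg adjustment over the 267 miRNAs that reached 10 CPM in 4 or more libraries, 2-sided; such fold changes understate those of low miRNAs. edgeR 4.0.16 (quasi-likelihood) and DESeq2 1.42.0 on the recovered reads were alternatives, with the exchanged rows left out or, for edgeR, also exchanged back. edgeR tested only the miRNAs that passed its own filter on low counts (filterByExpr). The tests were tested on simulated data. The members and lists were chosen with earlier results of these data known. Named members were those called in limma or edgeR, the 10 of highest mean CPM, those read in all libraries of 1 group and in none of another, the 4 exchanged ones, and the other arm of these where read; further arms were named after their values were seen. Exchanging the rows back was chosen with those results known; repeating other settings on the exchanged-back rows was added after seeing the data. Sequences are from RefSeq, hosts from GENCODE vM21.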

Additional observations from a re-analysis of the deposited data

Results flagged for a closer look

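In 57 groups of 4 values (18 named arms and the summed level, in 3 groups), 6 had 1 library far from the other 3. In each the other 3 libraries were at 0. There any value above 0 is flagged, so no chance rate applies to this count. miR-434-5p and miR-679-5p were each at 256 CPM, 1 read, in 4-week replicate 1. miR-341-3p was at 53.2 CPM, 2 reads, in 16-week replicate 1. miR-337-3p and miR-329-3p were each at 72.7 CPM, 1 read, in lean replicate 1. miR-376b-3p was at 53.2 CPM in lean replicate 1 as deposited, which is one of the exchanged rows.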

How the results depend on the processing

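The summed level moved most with the 4 exchanged rows. Its log2 ratio of group means at 4 weeks against lean was -0.57, and -1.67 with the rows exchanged back and -1.57 without miR-101b-3p in the total. At 16 weeks against lean 0.35 became -3.98 with the rows exchanged back and -3.27 with them left out, and at 16 against 4 weeks 0.92 became -2.31 and -2.47, and 1.86 without miR-101b-3p. Leaving out 1 library gave -0.67 to -0.42, 0.15 to 0.52 and 0.72 to 1.09.

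Counts of members called moved as follows. At 4 weeks against lean the 2 higher became 1 with the rows exchanged back, left out, in edgeR (rows out or exchanged back) and in DESeq2, and the 6 lower became 1 in edgeR with rows out, 3 in edgeR with rows exchanged back and 2 in DESeq2. At 16 weeks against lean the 4 higher became 1 with a pseudocount of 1 CPM and 0 with the rows exchanged back or left out, in edgeR and in DESeq2. The 7 lower became 4 with a pseudocount of 1 CPM, 2 with no filter, 11 with the rows exchanged back, 1 and 3 in edgeR (rows out, exchanged back) and 4 in DESeq2. At 16 against 4 weeks the 3 higher became 0 with the rows exchanged back or left out, in edgeR and in DESeq2. The 1 lower became 0 with a pseudocount of 1 CPM, without miR-101b-3p or with quantile normalization, and 2 with the rows exchanged back, in edgeR and in DESeq2. edgeR tested only 2 members with rows out and 4 with rows exchanged back, so fewer calls were possible. Each of them met edgeR's own filter only with lean or, for miR-544-5p, with the 4-week group counted. With the rows exchanged back, the 11 lower at 16 weeks against lean became 5 with a pseudocount of 1 CPM, and the 2 lower at 16 against 4 weeks became 1 with a pseudocount of 1 or 300 CPM or without miR-101b-3p. Shares over all tested miRNAs were not computed for other pseudocounts, filters and normalizations or for left-out libraries. Whether all calls moved alike there was not tested. Other causes were not tested.

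Leaving out 1 library, with the 267 miRNAs kept, gave 2 to 3 higher and 5 to 7 lower at 4 weeks against lean, 3 to 4 and 3 to 8 at 16 weeks against lean (3 lower without 16-week replicate 3), and 3 and 0 to 3 at 16 against 4 weeks (0 without 16-week replicate 1 or 2, 3 without 4-week replicate 2). With the rows exchanged back these were 1 and 8 to 10, 0 and 6 to 12 (6 without 16-week replicate 3), and 0 and 1 to 4 (1 without 16-week replicate 1 or 2, 4 without 4-week replicate 2).

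Reversed by the exchange were miR-434-3p (-4.02, -5.05 and -1.03 at 4 weeks, 16 weeks and 16 against 4 weeks; in edgeR -4.48, -5.39 and -0.90), miR-300-3p (-4.13, -4.18 and -0.054; in edgeR -4.58, -4.76 and -0.18), miR-376b-3p (-0.45, -3.19 and -2.74) and miR-299a-3p (-2.59 at 16 weeks against lean). Deviations of libraries with the same replicate number correlated weakly (-0.12 to 0.208, 3 of 12 over 0.1). For unlike numbers they ran from -0.206 to 0.230, with 4 of 36 over 0.1. The 3 were lean with 16-week libraries (0.11, 0.175 and 0.208). The numbers were not taken as pairs, and a replicate block gave the same counts (2 and 6, 4 and 7, 3 and 1). Depth limits the 4-week group most, where 3 reads over the group equal 213 CPM.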
